A study of Caenorhabditis elegans with 2 samples.

Results

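Binding sites of GMEB-2-GFP that lie between protein-coding genes and away from their 5′ ends were described in late embryos of the nematode Caenorhabditis elegans. The authors' joint list, called on both replicates together, holds 30000 peaks, and its 5000 peaks of highest signal were taken. The summit is the position of highest signal in a peak. Summits within 200 bp of a tRNA or snoRNA gene were removed first (365 peaks), then summits from 1000 bp upstream to 500 bp downstream of a protein-coding 5′ end (1656 promoter peaks), then summits inside a protein-coding gene (1956 gene-body peaks). The 1023 peaks that remained, 20.5% of the 5000, are the intergenic peaks described here. They were selected on the measured joint signal, so that signal is given as a description.

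The material came from 1 group with 2 biological replicates. Both replicates were strain OP622, which carries the unc-119(tm4063) III mutation and the insertion wgIs622, and both were collected as mixed-sex late embryos 5 h after synchronization by egg bleaching. The transgene expresses GMEB-2 fused at its C terminus to GFP and FLAG, and chromatin was precipitated with an antibody against GFP. Whole embryos were used, so the cell types that contribute to a peak cannot be told apart, and 1 transgenic line stands for the factor. Both replicate lists and the joint list were called against the same control alignment. The lists give no read counts, so sequencing depth is unknown, and no comparison between conditions could be made.

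GMEB proteins are DNA-binding proteins with a SAND domain, named after the vertebrate glucocorticoid modulatory element binding proteins, which recognise a short element built around CG steps. In C. elegans most regulatory sequence lies close to genes, since intergenic gaps are short. Intergenic sequence also holds small RNA genes, among them microRNA genes, spliced leader RNA genes and the gene for the RNA of the signal recognition particle, as well as tandem repeats.

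The windows below show the main kinds of sequence found under the strongest intergenic peaks. Each reaches 100 bp to either side of the summit and is taken from the plus strand of WBcel235 (ce11) in RefSeq. Capitals mark a GC-rich word, a B box word, GAGAGA or CCCCCC on either strand. The 10 GC-rich words are ACGCGC, the word GCGCAC, the word CGCGCA, the word CGCAAG, the word GCACGC, the word CGCACA, the word GCGCGC, the word CCGCAC, the word AACGCG and the word GCGCAA. The B box, an internal promoter element of tRNA genes, was searched as GATCAANNC, GATCGANNC, GTTCAANNC and GTTCGANNC. The mir-51 window (chrIV:11026086-11026286) and the mir-52 window (chrIV:14033915-14034115) belong to the strongest pair. The sls-2.2 window (chrII:5543601-5543801) and the srpr-2.1 window (chrIII:5211374-5211574) lie in other small RNA genes. Windows with GC-rich words are those near aagr-1 (chrIV:8375496-8375696), near F20B6.9 (chrX:4209154-4209354), near H37A05.5 (chrV:13646043-13646243) and in F13D11.22 (chrX:5812059-5812259). Tandem repeats are shown by the windows near pef-1 (chrIII:931509-931709) and near C24H10.4 (chrX:5056319-5056519).
mir-51 window: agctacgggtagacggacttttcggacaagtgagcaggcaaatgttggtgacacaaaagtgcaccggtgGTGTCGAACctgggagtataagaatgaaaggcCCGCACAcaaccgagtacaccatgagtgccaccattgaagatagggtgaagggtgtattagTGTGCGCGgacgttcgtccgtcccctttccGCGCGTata
mir-52 window: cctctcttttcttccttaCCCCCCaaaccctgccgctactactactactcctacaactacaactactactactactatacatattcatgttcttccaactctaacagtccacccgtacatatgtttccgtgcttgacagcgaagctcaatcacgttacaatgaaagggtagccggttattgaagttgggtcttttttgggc
sls-2.2 window: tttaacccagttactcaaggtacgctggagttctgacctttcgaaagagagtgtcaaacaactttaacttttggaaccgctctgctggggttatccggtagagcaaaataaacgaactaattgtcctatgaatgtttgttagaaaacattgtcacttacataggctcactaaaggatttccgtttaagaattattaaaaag
srpr-2.1 window: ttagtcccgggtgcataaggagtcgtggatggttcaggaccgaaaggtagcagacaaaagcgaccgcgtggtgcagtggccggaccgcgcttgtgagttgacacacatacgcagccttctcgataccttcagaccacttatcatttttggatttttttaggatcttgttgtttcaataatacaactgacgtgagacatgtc
aagr-1 window: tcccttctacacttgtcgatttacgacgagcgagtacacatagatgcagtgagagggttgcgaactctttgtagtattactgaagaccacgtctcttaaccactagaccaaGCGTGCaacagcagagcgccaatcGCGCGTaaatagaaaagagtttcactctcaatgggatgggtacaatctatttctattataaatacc
F20B6.9 window: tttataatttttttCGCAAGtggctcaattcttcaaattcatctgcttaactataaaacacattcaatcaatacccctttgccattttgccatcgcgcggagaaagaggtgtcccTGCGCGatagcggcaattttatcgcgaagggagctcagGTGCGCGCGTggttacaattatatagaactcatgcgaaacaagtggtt
H37A05.5 window: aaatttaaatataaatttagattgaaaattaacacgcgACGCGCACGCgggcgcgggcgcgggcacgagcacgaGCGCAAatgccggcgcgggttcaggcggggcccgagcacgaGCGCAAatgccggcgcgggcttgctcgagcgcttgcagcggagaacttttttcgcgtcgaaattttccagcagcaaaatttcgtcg
F13D11.22 window: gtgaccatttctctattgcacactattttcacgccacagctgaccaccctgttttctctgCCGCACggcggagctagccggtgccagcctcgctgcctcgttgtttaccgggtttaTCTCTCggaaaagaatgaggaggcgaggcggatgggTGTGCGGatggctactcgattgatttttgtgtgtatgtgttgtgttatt
pef-1 window: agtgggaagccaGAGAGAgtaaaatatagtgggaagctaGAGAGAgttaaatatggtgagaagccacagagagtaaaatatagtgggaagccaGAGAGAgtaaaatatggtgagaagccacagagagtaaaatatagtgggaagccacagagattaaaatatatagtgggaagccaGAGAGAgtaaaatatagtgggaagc
C24H10.4 window: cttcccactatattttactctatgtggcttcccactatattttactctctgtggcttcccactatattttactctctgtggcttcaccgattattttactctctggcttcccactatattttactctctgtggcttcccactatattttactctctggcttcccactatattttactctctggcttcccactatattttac

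The strongest pair of intergenic peaks lay at microRNA genes of the mir-51 family, whose members act redundantly and are needed in the worm embryo. The peak at mir-51 (chrIV:11025916-11026357, summit 11026186) had an authors' signal of 544 in the joint list, 186 in replicate 1 and 350.3 in replicate 2. It ranked 20 among the 30000 peaks of replicate 1 and 9 among those of replicate 2. Its summit lay 74 bp upstream of the annotated mir-51 hairpin, inside the short noncoding RNA gene F36H1.17, and between the coding genes alh-3 and hrg-5. Its window holds GC-rich words and a B box word.

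At mir-52 the peak (chrIV:14033831-14034203) had a joint signal of 429, with 172 in replicate 1 and 264 in replicate 2, and ranked 25 in each replicate list. That summit lay 7 bp inside the hairpin, and the mature mir-52 sequence (chrIV:14034024-14034047) lies within the printed window. A second, weaker intergenic peak at mir-52 had a joint signal of 77.8. A further member of the family, mir-53, had a peak of joint signal 73.1 with its summit 36 bp upstream of the hairpin. The mir-51 and mir-53 genes share the gap between alh-3 and hrg-5.

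The mature sequences, from RefSeq in DNA letters with the seed (bases 2 to 8) in capitals, show that these microRNAs share 1 seed, ACCCGTA, while mir-80, the next microRNA by signal, has another.
mir-51: tACCCGTAgctcctatccatgtt
mir-52: cACCCGTAcatatgtttccgtgct
mir-53: cACCCGTAcatttgtttccgtgct
mir-80: tGAGATCAttagttgaaagccga

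In all, 8 intergenic peaks lay within 200 bp of 7 of the 261 annotated microRNA genes. The peak at mir-80 had a joint signal of 96.4 and its summit lay 165 bp upstream of the hairpin. At mir-73 the signal was 86.4, at mir-49 62.6 and at mir-8189 51.5. Peaks near microRNA genes made up 0.782% of the intergenic peaks (95% exact interval 0.338% to 1.54%). The share was 0.201% of all qualifying intergenic windows and 0.147% of windows 1000 bp to either side. It was 0.409% of gene-body peaks (95% exact interval 0.177% to 0.804%), 0.302% of promoter peaks (0.0981% to 0.703%) and 0.44% of the 5000 peaks. The intervals of the intergenic, gene-body and promoter peaks overlap. Qualifying sequence is every nuclear position that meets the position rule, 24.9 Mb or 24.8% of the nuclear genome, cut into 123783 windows of the same length as the printed ones.

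Other small RNA genes also carried strong intergenic peaks. The peak in sls-2.2, a gene for the spliced leader SL2 RNA that is joined to downstream messages of operons, had a joint signal of 146, with 45.03 in replicate 1 and 97.8 in replicate 2. The peak in srpr-2.1, annotated as a signal recognition particle RNA gene, had a joint signal of 126, with 14.1 in replicate 1 and 80.7 in replicate 2. It ranked 330 in replicate 2 and 25663 in replicate 1. Each rank is that of the closest summit within 200 bp. Whether a stronger summit lay nearby in replicate 1 was not tested. Of its window's 36-base words, 61.4% occur once in the genome, against 80.7% for sls-2.2. Neither window holds a B box word, a GC-rich word, GAGAGA or CCCCCC. The snRNA class, to which sls-2.2 is assigned, had 1 further intergenic peak, at F11A5.14, with a signal of 52.9.

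Strong peaks also lay on tandem repeats. The pef-1 peak (chrIII:931555-931664, 103 in replicate 1, 171 in replicate 2, 232 joint) and the C24H10.4 peak (chrX:5056231-5056606, 81.5, 106 and 173) share a repeat unit, which the printed windows show on opposite strands. Of the bases in these windows, 91.0% and 100% are soft-masked as repetitive in the RefSeq genome. Every window was searched for any stretch of 20 bases present in the C24H10.4 window, on either strand. Among the intergenic peaks 6 held one (0.587%, 95% exact interval 0.216% to 1.27%), with joint signals from 59.6 to 232. The C24H10.4 peak, which supplied the search, is itself 1 of the 6, so the share is above 0 by construction and is not a comparison with the other sets. The strongest after the pef-1 peak lies between prhg-1 and nas-30 (chrI:933463-933561, 125, 147 and 208). The peaks hold the intergenic ranks 5, 7, 11, 152, 367 and 495. Of all qualifying windows 0.295% held one, and 0 of the gene-body and promoter peaks did. Reads from repeats can be placed at several copies, and how the authors placed them is not given in the sources used here.

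A different repeat lay under 2 overlapping peaks between nhr-204, a nuclear hormone receptor gene, and lgc-26, a ligand-gated ion channel gene. Their joint signals were 256.8 (chrV:265340-265715, 72.8 in replicate 1, 155 in replicate 2) and 155 (chrV:265544-265919, 67.1 and 105). Of their 36-base words 41.0% and 43.4% occur once in the genome. A pair of peaks between B0238.9 and Y49G5A.1 on chromosome V, with joint signals of 143 and 130.03, had 36.7% and 24.1% of such words.

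Other strong peaks lay in unique sequence. The aagr-1 peak (chrIV:8375408-8375783, 96.9 in replicate 1, 139 in replicate 2, 235.2 joint) sits in a gap of 350 bp between the 3′ ends of aagr-1, an acid alpha-glucosidase relative, and D2096.7. Its window holds none of the B box words searched, and variants of those words were not counted. The F20B6.9 peak (chrX:4209066-4209441, 45.7, 113 and 161) lies between F20B6.9 and hpk-1, which encodes a homeodomain-interacting protein kinase. The F13D11.22 peak (chrX:5811971-5812346, 57.2, 68.2 and 127) lies 9983 bp upstream of hbl-1, a heterochronic transcription factor gene. Its nearest coding 5′ end is that of F13D11.3, 6237 bp away, and the neighbours are named by position and not as targets. F13D11.22, in which the summit lies, and 3 other F13D11 genes within 200 bp belong to the ncRNA class.

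Joint signals of 123 to 174 were found at a further group of the top 25. These lay 113 bp beyond ztf-27, between acbp-6 and Y17G7B.21, between dot-1.4 and F55G7.5, between W04G3.11 and W02H3.3, between Y41D4B.24 and bus-2, between gtr-1 and F25E2.2, and beside the noncoding gene H37A05.5. In 3 of these windows most bases are soft-masked, 72.6% beyond ztf-27, 63.2% beside acbp-6 and 65.2% beside Y41D4B.24, although every 36-base word in them occurs once. Further peaks stood in the pseudogene WBGene00020829 (213), in the 14770 bp noncoding gene C30E1.9 (187) and in Y55B1BR.7 (143), and between nlp-46 and T28H10.2 (154). The last 2 had 53.6% and 48.8% of 36-base words that occur once.

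Signal across the 1023 intergenic peaks ran from 50.1 to 544 with a median of 58.9, and the middle part of the distribution lay between 53.7 and 67.9 (quartiles). Median joint signal was 61.5 for promoter peaks, 57.3 for gene-body peaks and 127 for peaks at tRNA or snoRNA genes. These values describe how the peaks were chosen. The authors' thresholded list, made with the irreproducible discovery rate (IDR, a measure of how well replicates agree on a peak), held 64 of the intergenic peaks (6.26%, 95% exact interval 4.85% to 7.92%), against 12.7% of the 5000 peaks. The share was 15.7% of promoter peaks, 3.68% of gene-body peaks and 65.2% of peaks at tRNA or snoRNA genes. Since the IDR list on ce11 equals the strongest 634 joint peaks, the 64 are the intergenic ranks 1 to 64, with signals of at least 91.8.

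Each replicate's own list, of 30000 peaks, was then searched for a summit within 200 bp. The closest one gave the replicate rank and signal. It need not be the strongest nearby, and neighbouring intergenic peaks can share it. Replicate 1 had one at 890 intergenic peaks (87.0%), replicate 2 at 996 (97.4%) and both at 863 (84.4%, 95% exact interval 82.0% to 86.5%). No intergenic peak lacked a summit in both lists, and all 64 peaks of the IDR list had one in each. When the search was held to the 5000 strongest peaks of each replicate, 249 (24.3%) were found in both. The median rank was 4161 in replicate 1 and 3451 in replicate 2. The joint list was made from both replicates, so these shares do not measure agreement independently.

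Among the 863 peaks found in both lists, signals of the replicates had a Spearman rho of -0.00485 and a Pearson r of 0.261 on log2 values. Both are descriptions across peaks of the same libraries and control. The peaks were selected on the joint signal, which both replicates feed, so these values do not measure agreement. They also depend on the pairing with the closest summit, and other pairings were not tested. Peaks found in both lists had a median joint signal of 60.4, and the 160 others one of 54.4. By rank, both lists held 100% of intergenic ranks 1 to 64, 97.4% of ranks 65 to 256, 86.7% of ranks 257 to 512, 79.7% of ranks 513 to 768 and 72.9% of the rest.

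**Figure D1:**
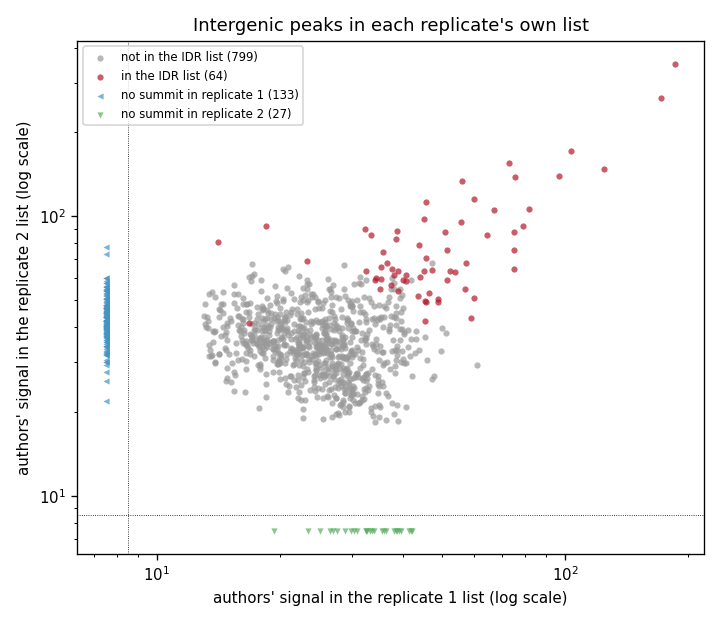
Authors' signal of each intergenic peak in the replicate 1 list (x axis) and the replicate 2 list (y axis), both on log scales with their own units. Red points are the 64 peaks of the IDR list, grey points the other peaks found in both lists, and triangles the 133 and 27 peaks with no summit within 200 bp in replicate 1 or replicate 2. A few red points extend to high signal in both replicates, and the grey points form a cloud with no common slope. Each signal is that of the closest summit within 200 bp.

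Noncoding RNA genes of the class named ncRNA were the commonest neighbours. This class holds 7764 mostly short genes of unassigned type, with a median length of 140 bp. Of the intergenic peaks 184 (18.0%, 95% exact interval 15.7% to 20.5%) had a summit within 200 bp of such a gene, and 80 lay inside one. The share was 4.82% of qualifying windows, 6.70% of windows 1000 bp to either side of the peaks, and 10.8% and 10.7% of gene-body and promoter peaks. Among the 64 peaks of the IDR list it was 31.2% (95% exact interval 20.2% to 44.1%). The intervals treat peaks as independent and cover counting error alone.

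Pseudogenes and piRNA genes were less common beside intergenic peaks than in qualifying sequence as a whole, but not clearly so against the flanking windows. Pseudogenes lay within 200 bp of 37 intergenic peaks (3.62%, 95% exact interval 2.56% to 4.95%), against 12.8% of qualifying windows and 3.86% of flanks. Genes of piRNAs, the germline small RNAs that guide Argonaute proteins, lay near 12 (1.17%, 95% exact interval 0.608% to 2.04%), against 6.20% of windows and 2.10% of flanks (95% exact interval 1.53% to 2.82%). Flanks were not held to the position rule, so some lie in genes or promoters. Windows in which every 36-base word occurs once gave the same order. There the share of peaks near an ncRNA gene was 19.8%, against 5.85% of windows, and that near a pseudogene 2.37%, against 10.5%. Long intergenic noncoding RNA genes lay near 13 peaks (1.27%, against 0.924% of windows and 1.27% of flanks), of which those at linc-91 (84.6), linc-1 (73.9), linc-18 (68.4) and linc-128 (68.3) had the highest signals. No rRNA gene and 1 antisense RNA gene, C02F4.12, lay near an intergenic peak.

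Counting every noncoding class except tRNA, snoRNA and piRNA together, 236 intergenic peaks (23.1%, 95% exact interval 20.5% to 25.8%) lay within 200 bp of a noncoding gene. That share was 18.6% of qualifying windows, 11.7% of flanks, 12.1% of gene-body peaks and 12.3% of promoter peaks. By rank it was 32.8% of ranks 1 to 64 and 21.2% of the last 255. The gene C30E1.9 on chromosome X had 5 intergenic peaks within 200 bp, with signals from 59.8 to 187, and no other noncoding gene had more than 2. Besides those already described, the strongest peaks at ncRNA-class genes were at T22B2.12 and T22B2.9 (chrX:3914313-3914688, 33.5 in replicate 1, 85.6 in replicate 2, 120.06 joint) and in W05H9.3 (joint signal 119, with a second peak of 84.3). Pairs of peaks also lay at F09F3.17 (111 and 64.2) and ZK792.10 (99.1 and 56.9). The strongest pseudogene peak after WBGene00020829 was at WBGene00014613 (90.4), which had a second of 53.8.

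**Figure D2:**
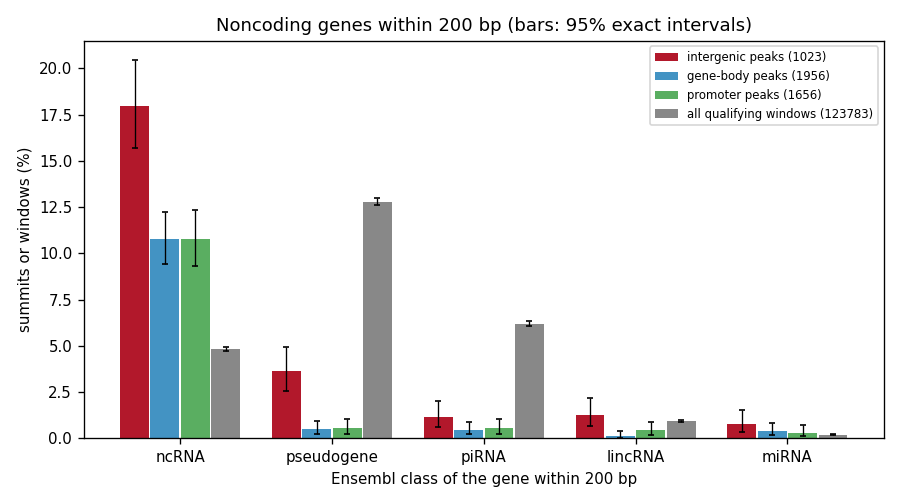
Percentage of summits, or of window centres, within 200 bp of a noncoding gene, by Ensembl class (x axis) and set (colours), with 95% exact intervals as bars. The intergenic peaks stand at 18.0% for the ncRNA class, against 4.82% of all qualifying windows, and at 3.62% for pseudogenes, against 12.8% (flanking windows, not drawn, stood at 6.70% and 3.86%).

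The DNA under intergenic peaks was richer in GC than its surroundings. The median GC content of the windows was 43.8%, against 34.8% in the windows 1000 bp away and 33.3% in all qualifying windows. Gene-body peaks had 42.8% and promoter peaks 41.8%. In 844 windows (82.5%) every 36-base word occurred once, against 84.0% of flanks. Under 50% of words were unique in 33 windows (3.23%, 95% exact interval 2.23% to 4.50%). The share was higher in qualifying windows (13.4%) and flanks (4.94%, 95% exact interval 4.04% to 5.97%). It was lower at gene-body peaks (0.920%, 95% exact interval 0.546% to 1.45%) and promoter peaks (1.75%, 95% exact interval 1.18% to 2.51%). Of the 64 windows of the IDR list, 9 had under 50% unique words (14.1%, 95% exact interval 6.64% to 25.02%). Soft-masked bases made up a median of 21.9% of a window, against 34.8% in the flanks.

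GAGAGA was the 6-base word whose share of windows exceeded that of the flanks most, among 2080 words that merge both strands. It was found in 315 intergenic windows (30.8%, 95% exact interval 28.0% to 33.7%), against 13.3% of flanks and 10.1% of qualifying windows. Gene-body peaks held it in 18.6% and promoter peaks in 24.0%. The next words by difference were AGAGAG (29.5% against 12.5% of flanks), then AAGAGA, then AGAGAA, then CTTCTC and then CTCTTC, which overlap it or each other on one strand or the other. Among the 249 peaks within the 5000 strongest of each replicate list, 39.0% held GAGAGA (95% exact interval 32.9% to 45.3%). By rank the share was 34.4% in ranks 1 to 64, 37.5% in ranks 65 to 256 and 25.9% in the last 255.

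Runs of cytosine or guanine were the next kind of word. CCCCCC occurred in 151 intergenic windows (14.8%, 95% exact interval 12.6% to 17.1%), against 3.86% of flanks, 2.61% of qualifying windows, 9.25% of gene-body peaks and 7.91% of promoter peaks. The other words of the first 10 were CCTCTC at 18.3%, AGAGGG at 16.7% and CTCTCC at 18.9%. At the opposite end AAAATT occurred in 40.3% of intergenic windows and in 66.5% of flanks, followed by other words of A and T. In total 1207 words were more frequent in intergenic windows than in flanks, 856 less frequent and 17 equal.

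GAGAGA and CCCCCC were denser within 150 bp of the summit than farther out. GAGAGA occurred 4.33 times per kb within 50 bp of intergenic summits, 4.45 times per kb between 100 and 150 bp, 1.46 between 250 and 300 bp and 1.22 between 950 and 1000 bp. CCCCCC was most frequent within 50 bp, at 4.02 per kb, and stood at 0.678 per kb at the far end. AAAATT went the other way, from 3.77 to 8.498 per kb. All of these words stand near an end of the ranking of summit windows against flanks 1000 bp away. That ranking used these same peaks, so the direction of change at intergenic peaks was fixed in advance. The profile describes only the distance over which it occurred. A fall with distance was not particular to intergenic peaks. From the first to the last 50 bp, GAGAGA went from 2.44 to 0.908 per kb at gene-body peaks and from 2.99 to 0.752 at promoter peaks. CCCCCC went from 2.39 to 0.303 and from 1.70 to 0.271.

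**Figure D3:**
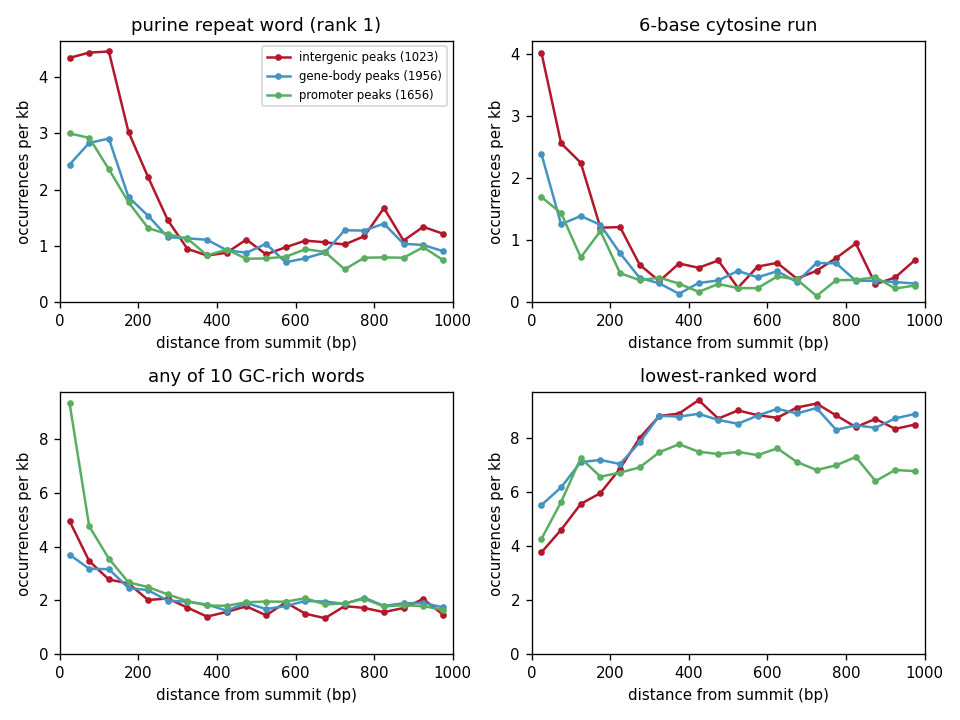
Occurrences per kb on either strand (y axis) by distance from the summit in bins of 50 bp (x axis), for intergenic, gene-body and promoter peaks. The panels show GAGAGA (top left), CCCCCC (top right), the 10 GC-rich words together (bottom left) and AAAATT (bottom right). GAGAGA and CCCCCC were densest near intergenic summits, and the GC-rich words near promoter summits.

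GC-rich words were more common at promoter peaks than at intergenic peaks. The words were chosen with earlier results of these data known, so this order is a description and not an independent finding. ACGCGC occurred in 58 intergenic windows (5.67%, 95% exact interval 4.33% to 7.27%), against 13.5% of promoter peaks, 5.52% of gene-body peaks, 2.44% of flanks and 2.38% of qualifying windows. Any of the 10 GC-rich words occurred in 361 (35.3%, 95% exact interval 32.4% to 38.3%), against 48.8% of promoter peaks and 19.3% of flanks. TACGTA, a palindrome with a central CG step, occurred in 19 (1.86%, 95% exact interval 1.12% to 2.89%), and in 2.35% of flanks and 2.17% of qualifying windows. A B box word occurred in 78 intergenic windows (7.62%, 95% exact interval 6.07% to 9.42%), near the 6.70% of flanks and 6.93% of qualifying windows. Peaks at tRNA or snoRNA genes held one in 82.2%. The position rule removed those peaks from the intergenic set, so that contrast follows from how the sets were made. These matches describe letters in a window and not bound sites. Only the listed words were counted, so variants of the B box are missed.

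Because GC content was higher under the peaks, shares were also read within bins of GC content. In windows of 45% to 50% GC, 39.1% of the 243 intergenic peaks held GAGAGA, against 20.98% of qualifying windows, 21.1% of gene-body peaks and 29.5% of promoter peaks. At or below 35% GC the values were 8.80%, 6.26%, 10.3% and 9.77%. For any GC-rich word the bin of 45% to 50% gave 37.4% of intergenic peaks and 35.98% of qualifying windows. The gap was wider at the ends, with 21.6% and 11.5% at or below 35% GC, and 53.6% and 41.7% above 50%. Between them the values were 27.1% and 21.4% at 35% to 40%, and 31.0% and 28.3% at 40% to 45%. ACGCGC alone was held by 5.76% of intergenic peaks and 5.78% of qualifying windows at 45% to 50% GC. Its values were 5.04% and 4.58% at 40% to 45%, and 3.72% and 2.93% at 35% to 40%. At or below 35% GC they were 4% and 1.20%, and above 50% they were 9.09% and 7.72%. For the ncRNA class the bin of 45% to 50% gave 26.3% of intergenic peaks and 11.6% of qualifying windows. Gene-body peaks there had 13.9% and promoter peaks 16.2%. Above 50% GC the values were 25.4%, 10.7%, 18.9% and 23.9%, so intergenic and promoter peaks lay close together in that bin. The part of GC content in these differences beyond the bins was not tested.

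**Figure D4:**
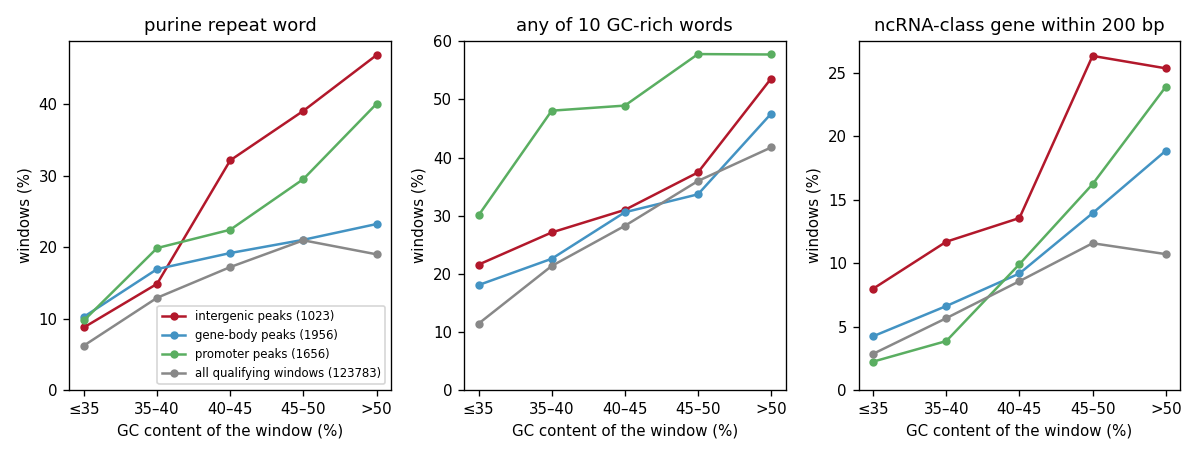
Percentage of windows (y axis) that hold GAGAGA (left), any of the 10 GC-rich words (middle) or an ncRNA-class gene within 200 bp (right), by GC content of the window (x axis) and by set (colours). Above 40% GC the intergenic peaks lie highest for GAGAGA, and promoter peaks lie highest for GC-rich words in each bin.

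By its median, distance to the nearest coding 5′ end was close to that in qualifying sequence as a whole. The median distance from a summit to the nearest coding 5′ end was 2668 bp (range 520 to 37985), against 2767 bp for qualifying windows. The position rule sets its lower limit. The farthest summit lay 37985 bp from a coding 5′ end, near the left end of chromosome X beside the pseudogene WBGene00008350, with a signal of 57.5. The 16 peaks at under 1000 bp lie past the 3′ ends of short genes. Distances of 1000 to 1500 bp held 21.02% of intergenic peaks and 16.8% of windows, and distances over 5000 bp held 19.6% of peaks and 22.0% of windows. Just past the limit, summits did not pile up, with 75 at 801 to 1000 bp upstream of the nearest 5′ end (counted as promoter peaks), 70 at 1001 to 1200 bp and 83 at 1201 to 1400 bp.

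Flanking coding genes pointed the same way at 588 intergenic peaks (57.5%), apart at 303 (29.6%) and toward each other at 129 (12.6%, 95% exact interval 10.6% to 14.8%). Facing genes flanked 16.3% of qualifying windows, and 17 of the 64 peaks of the IDR list (26.6%, 95% exact interval 16.3% to 39.1%), among them both mir-51 family peaks and the aagr-1 peak. A coding 3′ end lay within 500 bp of 176 peaks (17.2%, 95% exact interval 14.9% to 19.7%), against 13.7% of windows.

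Per Mb of qualifying sequence, chromosome III held 63.0 intergenic peaks, chromosome I 52.2, chromosome II 51.2, chromosome X 36.5, chromosome IV 32.1 and chromosome V 29.99, against 41.1 over all. Chromosome X held 206 peaks, 20.1% of the intergenic peaks and 22.7% of qualifying sequence, and 20 of the 64 peaks of the IDR list. As a share of all the top 5000 peaks on a chromosome the order differs, since intergenic peaks made up 25.1% on chromosome X, 22.2% on IV, 20.2% on II, 19.9% on V, 18.2% on III and 17.6% on I, against 20.5% over all. Chromosome III held the most top peaks of any kind, 960.

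**Figure D5:**
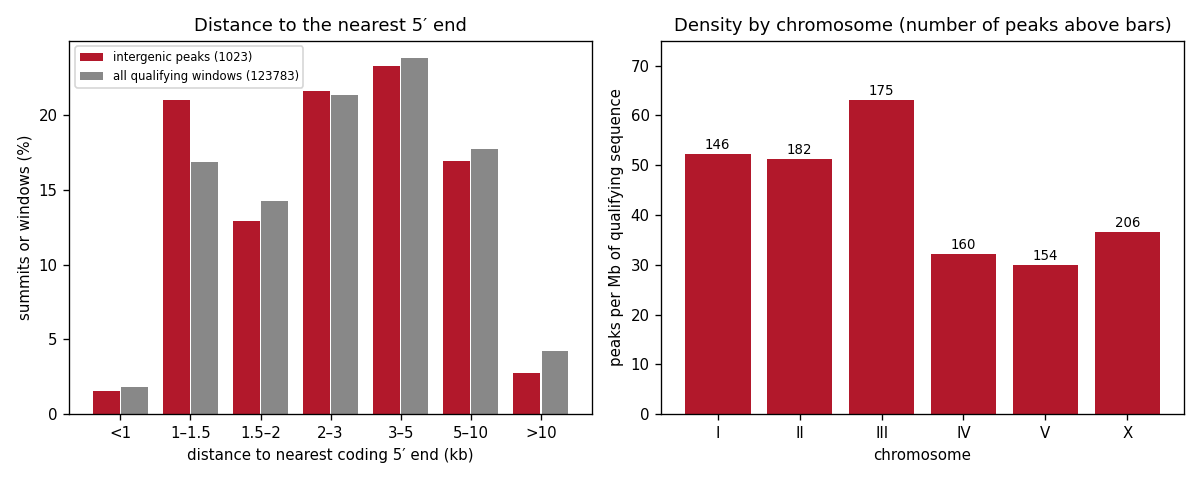
Left, percentage of intergenic peaks and of all qualifying windows by distance to the nearest coding 5′ end. Right, intergenic peaks per Mb of qualifying sequence on each chromosome, with the number of peaks above each bar, from 29.99 on chromosome V to 63.0 on chromosome III.

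Most intergenic peaks stood alone. Summits no more than 1000 bp apart formed 55 clusters that held 113 peaks, and 910 were single. The clusters of 3 lay at the start of C30E1.9 (chrX, summits from 16929757 to 16930944, signals 60.7, 116 and 72.01), between din-1 and ghi-1 (chrII, summits from 11636090 to 11637001, signals 86.2, 107 and 62.4), and between F54F12.1 and Y39E4B.6 (chrIII, summits from 13061445 to 13062735, signals 52.4, 74.8 and 72.5). Summits in a cluster come from the same libraries and are not separate samples.

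At the lower limit of the ranking, the last intergenic peaks inside stood at joint ranks 4979, 4980 and 4992 with signals of 50.16, 50.15 and 50.12. The next that met the position rule stood at ranks 5012, 5019 and 5025 with signals of 50.06, 50.04 and 50.03. Signal was continuous across the limit.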

How the data were processed

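Peak lists of 2 biological replicates of 1 group were used, on build ce11. The authors' relaxed lists of each replicate, their joint relaxed list and their IDR list were deposited as intervals with a signal value per peak, and each list has its own scale. Per the listing deposited with the lists, all were called against the same control. For the peak caller, the aligner and the IDR cut-off, nothing is given in the sources used here. Signal ranked and described peaks within a list. The replicate signal and rank given for a peak are those of the closest summit within 200 bp in that replicate's list.

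Genes were taken from Ensembl 115 and sequence from RefSeq, both WBcel235. Words were counted on both strands of windows reaching 100 bp to either side of a summit, flanks lay 1000 bp away, and uniqueness was the share of 36-base words found once in the nuclear genome. Intervals are 95% exact Clopper-Pearson intervals over peaks, which share libraries and are not replicates. No significance test was made, since the peaks were selected on signal and there was 1 group. The text names the 25 strongest intergenic peaks, up to 10 per noncoding class, the peaks at the lower limit and the largest clusters. CCCCCC, the GC bins, the distance profile and the shared repeat were chosen after the values were seen. The members and lists were chosen with earlier results of these data known. The scripts (Python 3.11.15, numpy 2.4.6, pandas 2.3.3, scipy 1.17.1) were tested on simulated data. The alternatives are described in the closing section. Lists on ce10 were not used.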

Additional observations from a re-analysis of the deposited data

How the results depend on the processing

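The alternatives recomputed the counts, shares and medians of the intergenic peaks alone, so the comparisons with flanks, qualifying windows and other peaks were not rerun. The choice of peaks changed the number of intergenic peaks from 1023 to 491 (2500 strongest joint peaks), 2068 (10000 strongest) or 64 (IDR list). Under those choices the share found in both replicate lists was 92.9%, 70.8% and 100%, and median GC content 45.3%, 42.3% and 44.5%. GAGAGA was held by 34.0%, 25.6% and 34.4%. In the IDR list alone, 32.8% lay near a noncoding gene, 9.38% held ACGCGC, 9.38% held CCCCCC and the median distance to a 5′ end was 2621.5 bp. A promoter window of 2000 bp upstream gave 719 peaks and 3468 bp. Median uniqueness was 100% throughout and can show no change. The share in both lists was 68.3% within 100 bp, 90.1% within 500 bp and 24.3% within the 5000 strongest of each. A summit inside a noncoding gene gave 12.2%, and one within 500 bp 28.5%. Windows reaching 50 and 200 bp to either side gave 3.13% and 10.5% for ACGCGC, 4.30% and 12.7% for B box words, 18.3% and 44.0% for GAGAGA, and 8.70% and 21.6% for CCCCCC. The shorter windows had a median GC content of 45.5%. With peaks chosen from 1 replicate alone there were 987 to 998 peaks, 57.4% to 60.9% were in both lists, 23.6% to 23.9% lay near a noncoding gene, the median distance was 2652 to 2682 bp, ACGCGC was held by 5.17% to 5.61%, B box words by 6.48% to 7.72%, GAGAGA by 26.2% to 29.5% and CCCCCC by 11.3% to 12.9%, and median GC was 42.3% to 42.8%. Of the 1023 peaks, 62.8% were chosen again from replicate 2 alone and 49.0% from replicate 1 alone. No paired analysis was possible because there was 1 group. Alternatives for GAGAGA and CCCCCC were added after seeing the data. Unknown depth limits every statement on weak peaks.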
